A study of Cricetulus griseus with 9 samples.

Results

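The transcripts described here are 7 genes of the NRF2 and thiol redox systems, out of 6753 genes measured by RNA sequencing in 9 libraries. They are Nqo1, Gstm1, Prdx1, Txn1, Gsr, Oxr1 and Noxa1, taken by symbol, and all 7 had values in every library. They were picked by name from earlier results on these same libraries, with the differences between the groups known. Their levels and differences are therefore given as a description, with no p-value, and the count of them that passed the threshold of the fit over all genes supports nothing; p-values are given for the other redox genes listed below, 95 in number.

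MI5-4 is a subline of Chinese hamster ovary cells, described by the submitters as null for hexokinase with an empty vector. Each of 3 groups had 3 libraries: WTHK2, labelled as carrying wild-type HK2; LAC, which is the empty-vector line after 24 h in 10 mM sodium lactate; and EV, the same line with no lactate added. All were grown in glucose medium with serum. The labels state neither whether a line is a single clone nor whether replicates came from different dishes, and the tests therefore reflect library-to-library spread alone, which may be technical. The values are normalized CPM, reads scaled to a library size set by the authors, and that size was 18050959 to 26238659 reads. The lowest gene mean in the table was 20.4 CPM.

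The group labels were checked first. Hk2, the gene that the construct is meant to supply, averaged 65.3 ± 1.33 CPM in the libraries labelled WTHK2 and 67.3 ± 2.11 CPM in EV (SD, n = 3 each; log2 difference -0.044, SE 0.054, limma adjusted p = 0.522). Since Hk2 was not higher there, each direction below for WTHK2 rests on the label; whether reads of the construct would be assigned to the hamster gene is not given in the sources used here. Hk1, another hexokinase, was also present, at 285 ± 7.63 CPM in WTHK2 and 324 ± 7.09 CPM in EV. It was lower in WTHK2 (log2 difference -0.18, SE 0.035, limma adjusted p = 3.64e-04). Transcripts of both genes were read in every library, though the line is described as null for hexokinase. Of 8 leukocyte and 8 epithelial markers 0 were in the table, and Vim, Fn1 and S100a6 were the 3 of 8 mesenchymal markers in it. These 3 differed in WTHK2 against EV, with log2 differences of 0.31 for Vim, 0.47 for S100a6 and -0.35 for Fn1 (limma adjusted p = 1.79e-07, 4.64e-08 and 2.97e-06). In LAC against EV Vim did not pass, and the values in the same order were 0.035, 0.31 and -0.33 (limma adjusted p = 0.362, 7.90e-06 and 6.36e-06). The summed level of the 3 markers was 4610 to 4725 CPM in WTHK2, 3973 to 4109 CPM in LAC and 3925 to 4020 CPM in EV. The 4 mitochondrially encoded transcripts in the table were higher in WTHK2 and LAC than in EV, and most so in the first replicates: their median log2 excess over EV was 0.73 in WTHK2 replicate 1, with 0.45 and 0.40 in the other two, and 0.80 in LAC replicate 1, with 0.52 and 0.45 in the other two. The part of these and of the mesenchymal markers in the results below was not tested. In bulk RNA, fewer cells of a kind and less transcript per cell cannot be told apart.

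NRF2, encoded by Nfe2l2, is a transcription factor that the adaptor KEAP1 hands over for degradation until electrophiles or oxidants modify KEAP1. Stabilised NRF2 then binds antioxidant response elements with small MAF proteins, in competition with the repressor BACH1, and raises enzymes of quinone reduction, glutathione conjugation and thiol reduction. Thioredoxin and glutathione are the main thiol reductants of the cell; each is kept reduced by a reductase that draws on NADPH, and peroxiredoxins pass electrons from thioredoxin to hydrogen peroxide. NADPH oxidases work the other way and make superoxide or hydrogen peroxide from NADPH and oxygen. Nqo1, Gstm1, Prdx1, Txn1 and Gsr belong to the NRF2 target genes described in rodents; Oxr1 and Noxa1 are redox genes outside that core set.

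**Figure D1:**
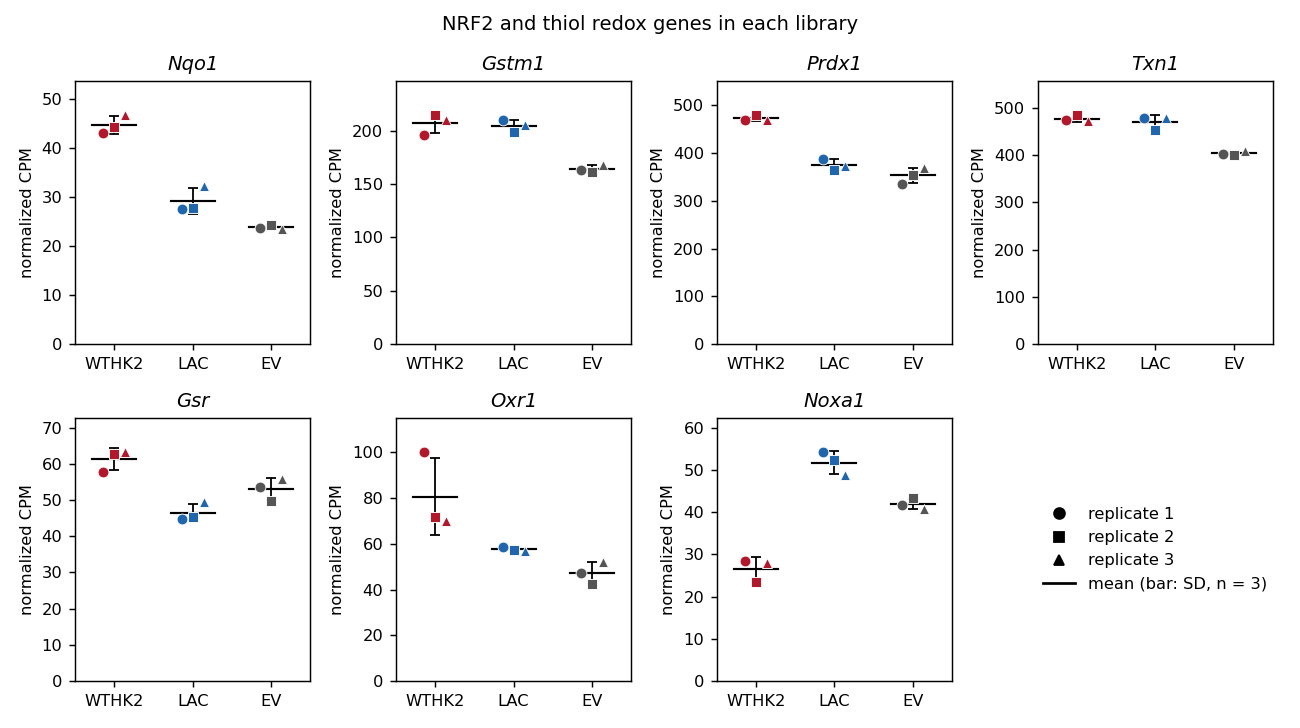
Normalized CPM (y axis, from 0) of the 7 genes in the WTHK2, LAC and EV libraries (x axis); symbols are replicates, lines are means and bars are SD (n = 3). Nqo1, Prdx1 and Oxr1 stood highest in WTHK2, Gstm1 and Txn1 stood at similar levels in WTHK2 and LAC above EV, and Noxa1 was lowest in WTHK2 and highest in LAC.

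The genes followed different patterns across the 3 groups. Nqo1, Prdx1 and Oxr1 were highest in WTHK2, with LAC nearer to EV. Gstm1 and Txn1 were raised by about the same amount in WTHK2 and LAC. Gsr was higher in WTHK2 and lower in LAC than in EV, and Noxa1 did the reverse.

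Nqo1 encodes a quinone reductase that is among the most used reporters of NRF2 activity. It read 43.0, 44.3 and 46.6 CPM in WTHK2, 27.6, 27.8 and 32.2 CPM in LAC, and 23.7, 24.2 and 23.5 CPM in EV. The 3 groups did not overlap, and within LAC replicate 3 stood apart from the other two, upwards. The WTHK2 mean was 1.87 times the EV mean and the LAC mean 1.22 times, and the fitted log2 differences were 0.88 (SE 0.074, 95% interval 0.72 to 1.03) and 0.28 (SE 0.074, 0.12 to 0.43). WTHK2 against LAC gave 0.60 (SE 0.074, 0.44 to 0.75). Nqo1 ranked 6 of 6753 genes by its difference in WTHK2 against EV and 343 in LAC against EV. The values rest on 524 to 1162 reads a library.

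Gstm1 encodes a cytosolic glutathione transferase of the mu class, which couples glutathione to electrophiles. It read 196, 214 and 210.0 CPM in WTHK2, 210, 199 and 205 CPM in LAC, and 163, 161 and 168 CPM in EV. Every WTHK2 and LAC library lay above every EV library, while WTHK2 and LAC overlapped. The log2 difference was 0.33 (SE 0.042) in WTHK2 against EV and 0.32 (SE 0.042) in LAC against EV; between WTHK2 and LAC it was 0.015, with a 95% interval of -0.071 to 0.10. Without WTHK2 replicate 1 and LAC replicate 1 the last value was 0.070 (SE 0.046). The table holds 4 genes of the mu class, and the sources used here do not say how reads shared by such paralogues were assigned, so the split between them is uncertain.

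Prdx1 encodes a cytosolic peroxiredoxin, and Txn1 the cytosolic thioredoxin that recharges it. Prdx1 read 469, 478 and 470 CPM in WTHK2, 387, 365 and 373 CPM in LAC, and 336, 355 and 368 CPM in EV. Its WTHK2 libraries stood clear of all others, whereas LAC and EV overlapped. The log2 difference of Prdx1 was 0.42 (SE 0.038, 95% interval 0.34 to 0.50) in WTHK2 against EV, 0.089 (0.011 to 0.17) in LAC against EV and 0.33 (0.25 to 0.41) in WTHK2 against LAC. Txn1 read 475, 484 and 471 CPM in WTHK2, 479, 452 and 478 CPM in LAC, and 402, 401 and 408 CPM in EV. Here the 6 WTHK2 and LAC libraries interleaved and all lay above EV. The log2 difference of Txn1 was 0.24 (SE 0.034) in WTHK2 against EV, 0.22 (SE 0.034) in LAC against EV and 0.021 (95% interval -0.049 to 0.092) in WTHK2 against LAC.

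Gsr encodes glutathione reductase, which regenerates reduced glutathione with NADPH. It read 57.8, 62.7 and 63.2 CPM in WTHK2, 44.8, 45.4 and 49.4 CPM in LAC, and 53.5, 49.8 and 55.7 CPM in EV. WTHK2 lay above EV and LAC below it, each without overlap, although LAC replicate 3 lay just under EV replicate 2. The log2 difference was 0.21 (SE 0.063, 95% interval 0.075 to 0.34) in WTHK2 against EV, -0.18 (SE 0.063, -0.31 to -0.052) in LAC against EV and 0.39 (SE 0.063, 0.26 to 0.52) in WTHK2 against LAC.

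Oxr1 encodes a TLDc domain protein known to protect cells from oxidative damage, with no reductase activity of the classical kind ascribed to it. It read 100.2, 71.7 and 70.0 CPM in WTHK2, 58.8, 57.2 and 56.8 CPM in LAC, and 47.1, 42.4 and 51.9 CPM in EV. The groups did not overlap, but WTHK2 replicate 1 stood far above the rest of its group and was also the WTHK2 library with the highest mitochondrially encoded transcripts (0.73 against 0.45 and 0.40 in the other two). The log2 difference was 0.75 (SE 0.096) in WTHK2 against EV and 0.58 (SE 0.072) without that library. For WTHK2 against LAC it was 0.46 (SE 0.096), and 0.29 (SE 0.072) without it; for LAC against EV it was 0.29 (SE 0.096). Its coefficient of variation within groups was 13.5%, where counting error alone gives 2.78%, the widest gap among the 7 genes.

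Noxa1 encodes the activator subunit of the NADPH oxidase NOX1, so its product favours oxidant production. It read 28.4, 23.4 and 27.9 CPM in WTHK2, 54.3, 52.3 and 48.7 CPM in LAC, and 41.8, 43.3 and 40.9 CPM in EV. The 3 groups were fully separate, with EV in the middle. The log2 difference was -0.65 (SE 0.075, 95% interval -0.80 to -0.49) in WTHK2 against EV, 0.30 (SE 0.075, 0.14 to 0.45) in LAC against EV and -0.94 (SE 0.075, -1.10 to -0.79) in WTHK2 against LAC. That last value was the lowest of all 6753 genes.

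**Figure D2:**
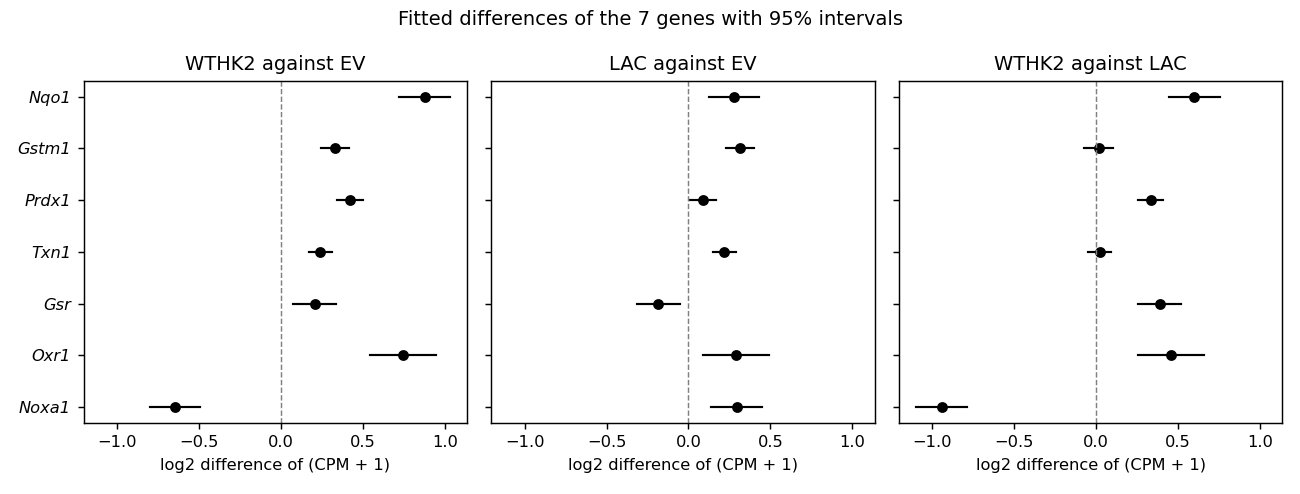
Fitted log2 differences of CPM plus 1 (x axis) for the 7 genes (y axis) in the 3 comparisons; points are estimates and lines are 95% intervals from the fit over 9 libraries. Noxa1 lay at -0.65 in WTHK2 against EV and at 0.30 in LAC against EV, while Gstm1 and Txn1 lay near 0 in WTHK2 against LAC.

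Counts over the 7 genes are given with the share of all genes, and nothing is read from them because the same contrasts chose the genes. In WTHK2 against EV, 6 were higher and 1 lower at an adjusted p under 0.05 in limma, where 46.4% of all genes passed (21.0% higher and 25.4% lower). In LAC against EV, 5 were higher, 1 was lower and 1 (Prdx1) did not pass, where 49.5% of all genes passed (22.4% higher and 27.1% lower). In WTHK2 against LAC, 4 were higher and 1 lower, where 16.1% of all genes passed (8.37% higher and 7.76% lower). WTHK2 and EV did not overlap for any of the 7 genes, 6 higher and 1 lower, as was so for 57.1% of all genes (26.6% higher and 30.5% lower). LAC and EV did not overlap for 6 of the 7, 5 higher and 1 lower, against 57.8% of all genes (27.0% higher and 30.8% lower). WTHK2 and LAC did not overlap for 5 of the 7, 4 higher and 1 lower, against 29.0% of all genes (14.5% each way). The first 2 comparisons share the EV libraries, so their differences are not independent.

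The rest of the redox system was followed with 9 lists by function, with 185 symbols in all, and 95 genes besides the 7 were in the table. In WTHK2 against EV, 34 of the 95 were higher and 17 lower (53.7% called, against 46.4% of all genes), with a median log2 difference of 0.053 against -0.0082 over all genes. In LAC against EV, 27 rose and 14 fell (43.2% called, against 49.5%), and the median was 0.022 against -0.0035. When all libraries were brought to a common median these counts were 40 and 13 in WTHK2 against EV and 34 and 9 in LAC against EV. The share of higher calls among all called genes then moved to 57.3% in WTHK2 against EV, where it was 45.3%, and to 58.6% in LAC against EV, where it was also 45.3%. In WTHK2 against LAC, 14 were higher and 14 lower (29.5% called, against 16.1%).

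**Figure D3:**
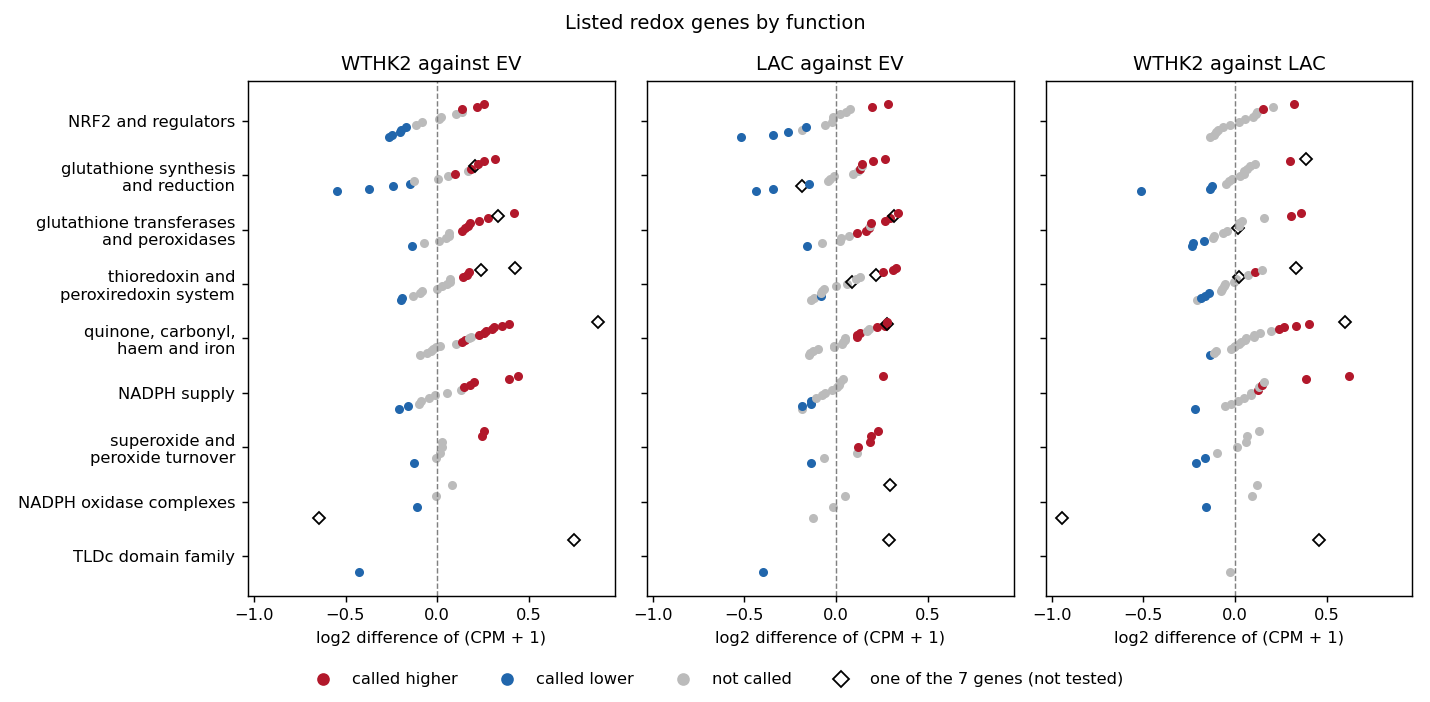
Log2 differences of CPM plus 1 (x axis) of the listed redox genes by function (y axis, genes of a list spread vertically by value) in the 3 comparisons; red, blue and grey points are genes called higher, called lower and not called at an adjusted p under 0.05, and open diamonds are the 7 genes, shown as a description whether or not they passed. Apart from Nqo1, the 18 quinone, carbonyl, haem and iron enzymes held 9 higher and 0 lower genes in WTHK2 against EV. There 46.4% of all genes were called. In LAC against EV they held 6 higher and 0 lower genes (33.3% called, against 49.5% of all genes).

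Among NRF2 and its regulators, 3 of 14 genes rose and 5 fell in WTHK2 against EV, and 2 rose and 4 fell in LAC against EV. Of this list 57.1% and 42.9% were called, against 46.4% and 49.5% of all genes. With a common median or quantile normalization 5 rose in WTHK2 against EV, and without EV replicate 1 or EV replicate 2, 3 fell there. Nfe2l2 itself read 213, 222 and 196 CPM in WTHK2, 190, 199 and 189 CPM in LAC, and 203, 187 and 196 CPM in EV, with overlapping groups. It passed in neither comparison with EV (log2 difference 0.10, limma adjusted p = 0.068 in WTHK2; -0.017, adjusted p = 0.77 in LAC), though in WTHK2 it did with a common median (adjusted p = 0.0150), with quantile normalization (0.0305) and without WTHK2 replicate 3 (0.0147). Keap1, the adaptor that marks NRF2 for degradation, rose to 145 ± 12.2 CPM in WTHK2 and 148 ± 8.86 CPM in LAC, against 121 ± 2.29 CPM in EV (SD, n = 3 each; log2 differences 0.25 and 0.28, limma adjusted p = 7.99e-04 and 2.98e-04). Rbx1, the RING subunit of the ligase that KEAP1 serves, rose by 0.22 and 0.20. Bach1, the repressor, fell to 60.5 ± 3.82 CPM in WTHK2 and 56.7 ± 6.43 CPM in LAC, against 72.1 ± 5.30 CPM in EV (log2 differences -0.25 and -0.34, limma adjusted p = 0.0094 and 7.48e-04). In WTHK2 it no longer passed when EV replicate 1 (adjusted p = 0.0608) was left out, nor when WTHK2 replicate 3 was (adjusted p = 0.0578). Sqstm1, which sequesters KEAP1, fell with log2 differences of -0.26 in WTHK2 and -0.16 in LAC. Nfe2l1, a relative of NRF2 that drives proteasome genes, fell by 0.52 on the log2 scale (SE 0.060, limma adjusted p = 1.92e-06) in LAC against EV. It also fell in WTHK2 against EV (log2 difference -0.20, limma adjusted p = 0.0101), but did not pass there without EV replicate 2 (adjusted p = 0.0753). It stood 0.32 higher in WTHK2 than in LAC (limma adjusted p = 7.75e-04).

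Quinone, carbonyl, haem and iron enzymes, the list of Nqo1, had 9 of 18 other members higher and 0 lower in WTHK2 against EV, with a median log2 difference of 0.16. In LAC against EV 6 rose and 0 fell, and the median was 0.050. Without EV replicate 2, 3 rose there, and without LAC replicate 1, 1 fell. The 9 of 18 called in WTHK2 against EV compare with 46.4% of all genes. In LAC against EV 33.3% of this list were called, fewer than the 49.5% of all genes. AKR1B8, an aldose reductase relative, read 200.4, 203 and 206 CPM in WTHK2, 153, 146 and 162 CPM in LAC, and 154, 157 and 154 CPM in EV. It rose by 0.39 in WTHK2 against EV (SE 0.042, limma adjusted p = 5.81e-07) and had a log2 difference of -0.014 in LAC against EV (adjusted p = 0.81). Ephx1, the microsomal epoxide hydrolase, was higher in WTHK2 than in EV by 0.35 and than in LAC by 0.24 (limma adjusted p = 9.69e-07 and 2.85e-04). Hmox1, haem oxygenase, rose to 97.3 ± 4.89 CPM in WTHK2, against 80.7 ± 0.592 CPM in LAC and 81.4 ± 3.35 CPM in EV (log2 0.27 against LAC, limma adjusted p = 0.00102). Blvrb, a biliverdin reductase, and Ptgr1, which reduces prostaglandin and leukotriene intermediates, rose in both: by 0.31 and 0.26 in WTHK2 against EV, and by 0.28 and 0.26 in LAC against EV.

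Glutathione transferases and peroxidases, the list of Gstm1, had 7 of 13 other members higher and 1 lower in each comparison with EV. That is 61.5% called in each, against 46.4% of all genes in WTHK2 and 49.5% in LAC. Without EV replicate 1, 4 were higher in WTHK2 against EV; without EV replicate 1 or EV replicate 2, 0 were lower in either comparison, and without WTHK2 replicate 3 or with a common median, 0 were lower in WTHK2. Mgst1, a membrane-bound transferase, read 386, 376 and 388 CPM in WTHK2, 329, 307 and 297 CPM in LAC, and 284, 285 and 291 CPM in EV. It rose by 0.42 in WTHK2 against EV (SE 0.039, limma adjusted p = 8.04e-08) and by 0.11 in LAC against EV (SE 0.039, limma adjusted p = 0.018). In LAC it no longer passed with a flat variance (adjusted p = 0.0648) or when EV replicate 1, EV replicate 2 or LAC replicate 1 was left out (adjusted p = 0.0663, 0.0595 and 0.142), nor when WTHK2 replicate 1 and LAC replicate 1 both were (adjusted p = 0.107). Gstm7 was higher in WTHK2, at 165 ± 13.3 CPM, than in LAC at 129 ± 6.98 CPM and in EV at 136 ± 3.16 CPM (limma adjusted p = 7.98e-05 and 3.04e-04). Its relative Gstm4 had a log2 difference of 0.0086 in WTHK2 against EV (limma adjusted p = 0.89). Gstm5 rose by 0.14 in WTHK2 and 0.18 in LAC against EV (limma adjusted p = 0.0171 and 0.00248). In WTHK2 Gstm5 did not pass with a flat variance or without EV replicate 1, WTHK2 replicate 2 or WTHK2 replicate 3 (adjusted p = 0.0539 to 0.141). Gstp1, the pi class transferase, rose by 0.23 in WTHK2 and 0.19 in LAC. Gpx8, a peroxidase of the endoplasmic reticulum, rose by 0.29 in LAC against EV (limma adjusted p = 5.12e-05). In WTHK2 it was lower than in LAC, with a log2 difference of -0.23. Mgst3 rose by 0.34 in LAC against EV (limma adjusted p = 3.46e-05). It was lower in WTHK2 than in LAC (-0.17, limma adjusted p = 0.0281), but did not pass with a flat variance (0.0933) or in the fit of 6 libraries (0.0533). Nor did Mgst3 pass without WTHK2 replicate 2, WTHK2 replicate 3, LAC replicate 1 or LAC replicate 3 (adjusted p = 0.0703 to 0.154). Gpx1 was also lower in WTHK2 than in LAC (-0.23, limma adjusted p = 0.00456), but did not pass without LAC replicate 3 (0.0503). In WTHK2 against LAC the list had 2 higher and 3 lower (38.5% called, against 16.1% of all genes).

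Of the other peroxiredoxin genes, PRDX2, Prdx4 and Prdx5 were highest in LAC, where Prdx1 was not. Prdx3 averaged 66.0 CPM in WTHK2, 69.7 CPM in LAC and 63.7 CPM in EV, with overlapping groups. It did not pass in LAC against EV (log2 difference 0.13, limma adjusted p = 0.072). PRDX2, another cytosolic member, read 173, 181 and 176 CPM in WTHK2, 207, 189 and 199 CPM in LAC, and 155, 160 and 158 CPM in EV. Prdx4, the peroxiredoxin of the endoplasmic reticulum, read 213, 203 and 211 CPM in WTHK2, 241, 227 and 224 CPM in LAC, and 185, 185 and 186 CPM in EV. For both, all LAC libraries lay above all WTHK2 libraries, and these above EV. In LAC against EV the log2 rise was 0.33 for PRDX2, 0.31 for Prdx4 and 0.25 for Prdx5, a member found in mitochondria and peroxisomes (limma adjusted p = 4.47e-06, 4.60e-06 and 1.44e-04). In WTHK2 against LAC they were lower, with log2 differences of -0.17, -0.14 and -0.18 (limma adjusted p = 0.00881, 0.0171 and 0.00804). Without LAC replicate 1 PRDX2 and Prdx4 no longer passed in that comparison (adjusted p = 0.0528 and 0.0994), nor did they when WTHK2 replicate 1 was left out with it (adjusted p = 0.0774 and 0.0517). Prdx4 also no longer passed without WTHK2 replicate 2 (adjusted p = 0.0834) or with a flat variance (adjusted p = 0.0602).

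**Figure D4:**
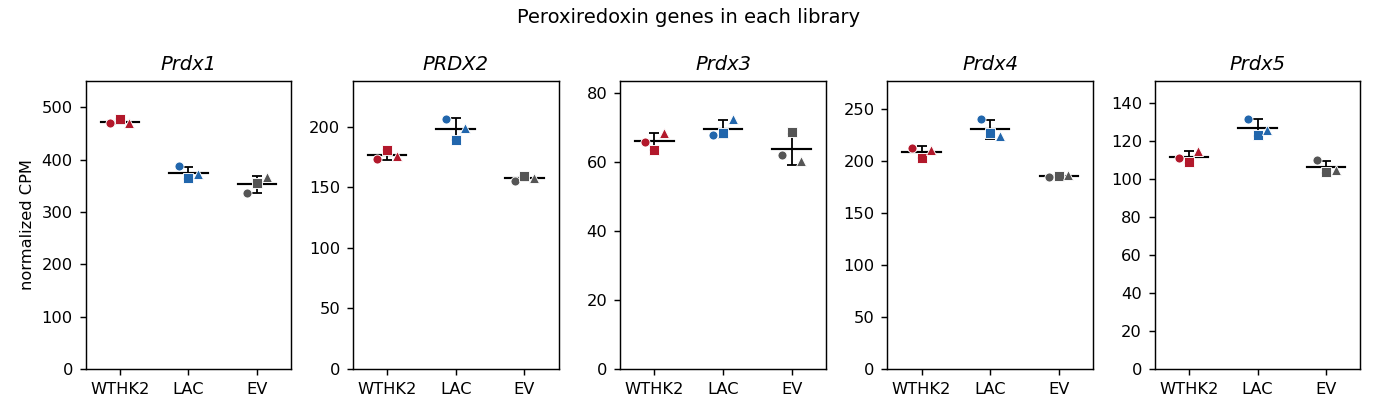
Normalized CPM (y axis, from 0) of 5 peroxiredoxin genes in the WTHK2, LAC and EV libraries (x axis); circles, squares and triangles are replicates 1, 2 and 3, lines are means and bars are SD (n = 3). Prdx1 was highest in WTHK2, and PRDX2, Prdx4 and Prdx5 were highest in LAC. For Prdx3 the groups overlapped.

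Of 13 other members of the thioredoxin and peroxiredoxin system 3 rose and 2 fell in WTHK2 against EV, and 3 rose and 1 fell in LAC against EV. The shares called were 38.5% and 30.8%, against 46.4% and 49.5% of all genes. The lower calls depended on single libraries and on the scaling: in WTHK2 they were 0 without EV replicate 2 or WTHK2 replicate 1 and 1 without EV replicate 1 or WTHK2 replicate 3, with a common median or with quantile normalization. In LAC they were 0 without any 1 of the 3 EV libraries, LAC replicate 1 or LAC replicate 3, with a common median or with a flat variance, and 2 without WTHK2 replicate 1 or LAC replicate 2, in the fit of 6 libraries, in the robust fit and with voom. Txnrd1, the thioredoxin reductase of the cytosol, stood at 863 ± 27.7 CPM in WTHK2 and 848 ± 8.95 CPM in EV (log2 difference 0.025, limma adjusted p = 0.55). Srxn1, sulfiredoxin, which repairs over-oxidised peroxiredoxins, stood at 228 ± 8.38 CPM in WTHK2, with a log2 difference from EV of 0.0012 (limma adjusted p = 0.98). Both are NRF2 targets in rodents, and neither passed in that comparison. In LAC against EV Txnrd1 was lower (log2 difference -0.082, limma adjusted p = 0.0431), and in WTHK2 against LAC it was higher (0.11, limma adjusted p = 0.0287). With a flat variance neither of these differences of Txnrd1 passed (limma adjusted p = 0.137 and 0.133). The LAC against EV call was also lost with a common median, or without any EV library, LAC replicate 1 or LAC replicate 3 (adjusted p = 0.0720 to 0.333). The WTHK2 against LAC call was also lost in the fit of 6 libraries (adjusted p = 0.0824). So it was without WTHK2 replicate 1, WTHK2 replicate 2, LAC replicate 1 or LAC replicate 3 (adjusted p = 0.0760 to 0.107). Srxn1 did not pass in these comparisons (limma adjusted p = 0.17 and 0.27).

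Glutathione synthesis and reduction, the list of Gsr, split by enzyme. Of 13 other members 5 rose and 4 fell in WTHK2 against EV, and 4 rose and 3 fell in LAC against EV. The shares called were 69.2% and 53.8%, against 46.4% and 49.5% of all genes. Gclm, the modifier subunit of glutamate-cysteine ligase, rose to 92.1 ± 5.89 CPM in WTHK2, against 74.8 ± 6.19 CPM in LAC and 77.1 ± 3.61 CPM in EV (log2 0.30 and 0.25, limma adjusted p = 0.00238 and 0.00263). The catalytic subunit Gclc stood at 84.4 ± 4.39 CPM in WTHK2 and 92.1 ± 3.76 CPM in EV and did not pass (limma adjusted p = 0.058), but did without WTHK2 replicate 2 (adjusted p = 0.0290) or LAC replicate 2 (0.0490). In LAC, at 82.9 ± 3.22 CPM, Gclc was lower than in EV (log2 difference -0.15, limma adjusted p = 0.0237). That call was lost with a common median, with quantile normalization, or without EV replicate 1, LAC replicate 1 or LAC replicate 3 (adjusted p = 0.0513 to 0.122). Chac1, which degrades glutathione, fell to 23.7 ± 2.69 CPM in WTHK2, against 34.1 ± 2.74 CPM in LAC and 34.8 ± 1.52 CPM in EV (log2 differences -0.51 and -0.54, limma adjusted p = 2.45e-04 and 3.83e-05). The exporter genes Abcc4 and Abcc1 fell in both comparisons with EV, at log2 differences of -0.37 and -0.24 in the first and -0.44 and -0.35 in the second. Ggt7, of the gamma-glutamyltransferase family, rose by 0.31 in WTHK2 and 0.26 in LAC.

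NADPH supply, on which Gsr and thioredoxin reductase depend, gave 5 of 13 genes higher and 2 lower in WTHK2 against EV. In LAC against EV it gave 1 higher and 3 lower. The shares called were 53.8% and 30.8%, against 46.4% and 49.5% of all genes. The lower calls numbered 1 in WTHK2 without EV replicate 2, and 1 in LAC without EV replicate 1, EV replicate 2, LAC replicate 1 or LAC replicate 3, with a common median, with quantile normalization or with a flat variance. Nadk, the cytosolic kinase that makes NADP from NAD, read 174, 193 and 190.1 CPM in WTHK2, 117, 119 and 124 CPM in LAC, and 136, 144 and 131 CPM in EV. Like Gsr it was above EV in all WTHK2 libraries and below it in all LAC libraries. Its log2 differences were 0.44 in WTHK2 against EV, -0.18 in LAC against EV and 0.62 in WTHK2 against LAC (limma adjusted p = 7.08e-07, 0.00391 and 1.42e-08). Idh1, the cytosolic NADP-linked isocitrate dehydrogenase, rose to 52.8 ± 4.14 CPM in WTHK2, against 40.1 ± 1.54 CPM in LAC and 40.0 ± 3.48 CPM in EV. The pentose phosphate genes Tkt and Pgd rose by 0.18 and 0.15 in WTHK2 against EV, and Mthfd2, of the mitochondrial folate pathway, fell there with a log2 difference of -0.21 (limma adjusted p = 1.42e-04).

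Beside Noxa1 and Oxr1 the NADPH oxidase and TLDc lists held few genes. Of 18 oxidase symbols listed, 3 genes besides Noxa1 were in the table; Nox1, its partner, is not analysed here. Nox4, an oxidase that needs no such activator, stood at 64.6 ± 6.34 CPM in WTHK2, 59.2 ± 5.47 CPM in LAC and 64.6 ± 0.597 CPM in EV. Rac1, a small GTPase that takes part in NOX1 activation, had an adjusted p of 0.058 in limma for WTHK2 against EV and 0.72 for LAC against EV. Cybc1, a chaperone of the phagocyte oxidase NOX2, stood at 120 ± 1.65 CPM in WTHK2, 134 ± 1.38 CPM in LAC and 129 ± 1.80 CPM in EV, and was lower in WTHK2 than in LAC (log2 difference -0.16, limma adjusted p = 0.0107) and in EV (-0.11, limma adjusted p = 0.0329). Against EV it no longer passed with a common median, with quantile normalization, or without any 1 of the 3 EV libraries, WTHK2 replicate 2 or WTHK2 replicate 3 (adjusted p = 0.0540 to 0.152). Ncoa7, the single other TLDc gene in the table, went against Oxr1: it fell to 24.1 ± 1.71 CPM in WTHK2 and 24.8 ± 3.87 CPM in LAC, against 32.7 ± 1.65 CPM in EV (log2 differences -0.43 and -0.40, limma adjusted p = 9.83e-04 and 0.00155). In superoxide and peroxide turnover 2 of 7 genes rose and 1 fell in WTHK2 against EV, and 4 rose and 1 fell in LAC against EV. The shares called were 42.9% and 71.4%, against 46.4% and 49.5% of all genes. Without EV replicate 1, 1 rose and 0 fell in WTHK2. Sod1, the cytosolic superoxide dismutase, rose by 0.26 in WTHK2 and 0.19 in LAC, and its copper chaperone Ccs rose by 0.23 in LAC against EV (limma adjusted p = 0.00339). Parp1, a DNA damage sensor that uses NAD, fell with log2 differences of -0.13 in WTHK2 and -0.14 in LAC against EV (limma adjusted p = 0.0149 and 0.00877). It no longer passed in WTHK2 with a common median, with a flat variance, or without EV replicate 1, EV replicate 2 or WTHK2 replicate 1 (adjusted p = 0.0526 to 0.0700), nor in LAC with a common median or without LAC replicate 1 (adjusted p = 0.0553 and 0.0535).

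The genes whose profile over the 9 libraries lay nearest to each of the 7 were found by the root mean square difference of mean-centred log2 values. Nearest to Nqo1 were Cebpd, a transcription factor (0.11), Ints11, the endonuclease of the Integrator complex (0.12), and Acss2, acetyl-CoA synthetase (0.13); Nqo1 itself varied by 0.37 about its mean. Nearest to Prdx1 were Slc35b1 (0.036), BC017158 (0.041) and Mgst1 (0.041), the last of them the listed transferase above. Nearest to Gstm1 were Cdkn3, Arf5 and Psenen, at 0.029 to 0.034, and to Txn1 PPIA, cyclophilin A (0.012), Trappc3 and Fis1. Gsr was nearest to 2310022B05Rik (0.054), Fcho2 and Gstm7 (0.066), and Oxr1 to Plekhg5 (0.083), Sars2 and Ccnl2. Noxa1 was nearest to Col6a2, a collagen VI chain (0.12), which stood at 26.6 ± 4.14 CPM in WTHK2, 48.1 ± 4.94 CPM in LAC and 43.1 ± 2.20 CPM in EV. Libraries of a group share their treatment, so these distances describe group means more than single cultures.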

How the data were processed

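The deposited table holds normalized CPM for 6753 genes in 9 libraries, which the authors scaled to an effective library size. Per the submitters' processing notes, the authors' tools include STAR 2.7.0a, featureCounts 2.0.1, edgeR 3.8, cutadapt 1.18 and FastQC 0.11.8. No build or annotation is given in the sources used here. Within each library every value was a whole multiple of what 1 read is worth (100% of values, tolerance 0.01), which gave reads per gene.

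On log2(CPM + 1), limma 3.58.1 in R 4.3.3 fitted the 9 libraries together, with a trended variance and group as the sole term; a floor of 1 CPM on the gene mean removed 0 genes. A call is a two-sided adjusted p (Benjamini-Hochberg, whole table) under 0.05. Fold changes on this scale slightly understate those of low genes. Counting errors given from reads leave out all other error. The script was tested on simulated data. Tables and figures used Python 3.11.15, pandas 2.3.3 and matplotlib 3.10.9.

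The 7 genes, the lists and the tests were chosen with earlier results of these data known. Genes to name came from the 7, the 3 nearest profiles of each, the mitochondrially encoded genes, Nfe2l2, Keap1 and Bach1. Each list and comparison added its called genes of lowest adjusted p, at most 4. A list with no call added at most 2. Not all of these are named above. Left out from the lists in WTHK2 against LAC were Vcp, FTH1, Park7, Gss and Slc3a2. There Vcp was called higher (log2 difference 0.15) and the others lower (-0.14, -0.16, -0.14 and -0.13). Those lower calls were lost without LAC replicate 3 (limma adjusted p = 0.0585 to 0.103). Further genes (AKR1B8 in LAC, Gclc, Gstm4, Gstm5, Prdx3, Rac1, Srxn1, Txnrd1, Pgd, and some listed genes in a further comparison) were added after their values were seen.

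Alternatives were pseudocounts of 0.25 and 4, no filter or a filter at 5 CPM, quantile normalization, a common median, fits of 6 libraries, a robust fit, a flat variance, an adjusted p under 0.01, a block for replicate number, and each library left out. Added after seeing the data were voom on the recovered reads and leaving out WTHK2 replicate 1 and LAC replicate 1 together. The planned edgeR test was not run. For gene order, 6149 of 6753 genes (91.1%) were matched by symbol to CriGri-PICRH-1.0.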

Additional observations from a re-analysis of the deposited data

How the results depend on the processing

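The log2 differences of the 7 genes kept their direction under every alternative run in WTHK2 against EV and in LAC against EV, and in the 3 comparisons they moved by less than the spread between replicates, with these exceptions. With libraries rescaled to a common median, Txn1 stood at 0.28 in WTHK2 against EV and 0.26 in LAC against EV. Gstm1 in WTHK2 against LAC was 0.070 when WTHK2 replicate 1 and LAC replicate 1 were both left out. Within that spread, Oxr1 ranged from 0.58 to 0.84 in WTHK2 against EV and from 0.29 to 0.55 in WTHK2 against LAC as each library was left out. In LAC against EV Oxr1 ranged from 0.22 to 0.36, with the lowest value without EV replicate 2 (0.22, SE 0.11). Requiring an adjusted p under 0.01 left 941 genes higher in WTHK2 against EV, 998 in LAC against EV, and 281 higher and 260 lower in WTHK2 against LAC; of the 95 other redox genes 10 were then lower in WTHK2 against EV and 8 in WTHK2 against LAC. With a common median 9 of them were lower in LAC against EV. Leaving out each library gave 9 to 18 of these genes lower in WTHK2 against EV, 9 to 17 in LAC against EV and 8 to 15 in WTHK2 against LAC, and over all genes 333 to 650 higher and 329 to 629 lower in WTHK2 against LAC. The counts moved by over 1.5 times without EV replicate 1 (11 of these genes lower in WTHK2 and 9 in LAC), EV replicate 2 (9 lower in WTHK2), LAC replicate 3 (8 lower in WTHK2 against LAC; over all genes 370 higher and 331 lower there) and WTHK2 replicate 3 (333 and 329). The cause was not tested. Same-numbered libraries did not all deviate together (correlations over genes of -0.0057 to 0.44), nor did each library correlate best with its own number, so the numbers are not taken as pairs; with the replicate block 1558 genes were higher and 1875 lower in WTHK2 against EV, 1672 and 1937 in LAC against EV, and 732 and 682 in WTHK2 against LAC, and Nfe2l2 and Gclc passed in WTHK2 against EV (adjusted p = 0.0371 and 0.0392). Between WTHK2 and LAC the same-numbered correlations were 0.44, 0.25 and 0.073, and those of unlike numbers ran from -0.33 to 0.19. The main fit leaves replicate number out. Voom on recovered reads called 1437 higher and 1754 lower in WTHK2 against EV. Some uncalled differences near 0 changed sign. Ncoa7 in WTHK2 against LAC ranged from -0.12 to 0.087 as each library was left out. In LAC against EV, Nfe2l2 turned to 0.024 with a common median, 0.017 with quantile normalization and a range of -0.047 to 0.010 with each library left out, and AKR1B8 to 0.028, 0.0014 and a range of -0.053 to 0.021. In WTHK2 against EV, Txnrd1 turned to -0.018 with quantile normalization, and leaving out each library gave -0.028 to 0.031 for Srxn1 and -0.0024 to 0.025 for Gstm4. The planned edgeR test was not run.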

Other observations

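Genes next to the 7 on the chromosome were looked up by symbol, taking up to 7 listed genes on each side; Gstm1 and Txn1 could not be matched by symbol. The median log2 difference of the 14 neighbours in WTHK2 against EV was -0.021 around Nqo1, 0.030 around Prdx1, 0.032 around Gsr, 0.022 around Oxr1 and 0.010 around Noxa1. In LAC against EV the neighbours of Noxa1 had a median of 0.14, beside 0.30 for Noxa1 itself, and those of the other 4 genes lay between -0.055 and 0.059.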
